A study of Homo sapiens with 2 samples.

Results

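NKG2D is an activating receptor of natural killer cells and some T cells. It binds stress ligands of the MIC and ULBP (RAET1) families, which resemble MHC class I chains and are displayed by transformed, infected or damaged cells. The receptor has no signalling motif of its own and pairs with the adaptor HCST (DAP10), which recruits phosphatidylinositol 3-kinase, while TYROBP (DAP12) carries an ITAM and serves related receptors in natural killer and myeloid cells. 10 genes were taken by symbol from a deposited expression table of 24991 genes: the 8 ligands MICA, MICB, ULBP1, ULBP2, ULBP3, RAET1E, RAET1G and RAET1L, and the 2 adaptors HCST and TYROBP. The group was chosen by family and by the FPKM values of both libraries, so levels and differences are descriptions and no test is given for them.

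The RNA came from PLC/PRF/5, an established human hepatocellular carcinoma line, kept under hypoxia in both groups. For the NFX1 library the cells overexpressed NFX1, which encodes a zinc-finger DNA-binding protein, and for the vector library they carried an empty vector. Each group had 1 library, so no difference has a replicate check and every statement compares these libraries, not the conditions. The promoter that drove NFX1, and whether each line was a clone or a pool, are not given in the sources used here. Levels are in FPKM, fragments per kilobase of transcript scaled for library size, so that different genes can be compared. NFX1 itself had 56.0 FPKM in the NFX1 library and 4.21 FPKM in the vector library.

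The table holds no counts, and the lowest values of short genes put the NFX1 library at an estimated 29900000 fragments and the vector library at 26300000. Of 13 hepatocyte and hepatoma markers, all 13 reached 1 FPKM in a library, among them transferrin (TF) at 938 and 879 FPKM in the NFX1 and vector libraries, while albumin (ALB) stood at 1.06 and 0.776 FPKM. Bulk RNA cannot tell fewer expressing cells from less RNA per cell.

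Of the 10 genes, 5 reached 1 FPKM in a library, 1 lay above 0 but below that limit, and 4 were listed at 0 in both libraries. The 4 ligands that reached 1 FPKM (MICA, MICB, ULBP1 and ULBP2) were 1.13 to 1.33 times as high in the NFX1 library, and the adaptor HCST was 2.04 times as high there. Summed over the 8 ligands, the level was 84.0 FPKM in the NFX1 library and 73.0 FPKM in the vector library, a ratio of 1.15, beside 1.099 for the summed FPKM of all genes; scaled by that sum, the ligand ratio was 1.05. MICA and MICB together made up 93.3% of that sum in the NFX1 library and 94.0% in the vector library.

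**Figure D1:**
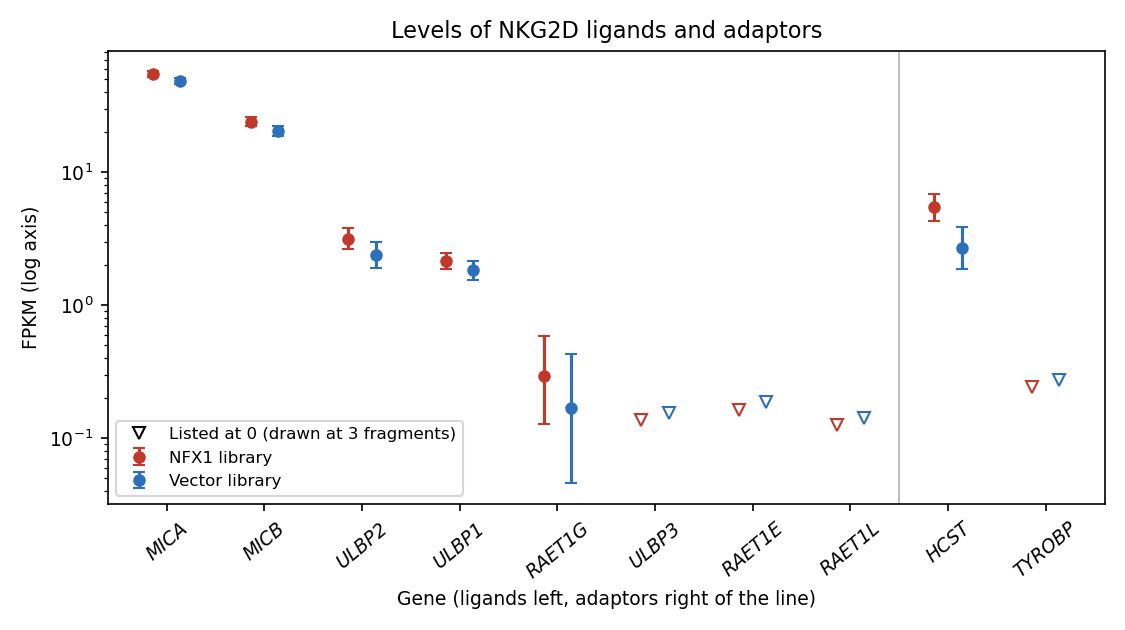
Level of each gene in FPKM on a log axis, NFX1 library left of vector library; bars are 95% Poisson intervals from fragments estimated with the shortest transcript, and open triangles mark genes listed at 0, drawn at the level that 3 fragments would give. MICA and MICB stand above the ULBP and RAET1 genes in both libraries, and HCST shows the widest gap between libraries on the log axis among genes above 1 FPKM.

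MICA (chromosome 6, 31367561 to 31383092, hg19) is a transmembrane NKG2D ligand that is shed from tumour cells by metalloproteases. It had 54.5 FPKM in the NFX1 library and 48.3 FPKM in the vector library, above 83.7% and 82.8% of the 11182 genes with at least 1 FPKM in a library. The fold was 1.13, with an exact (Clopper-Pearson) 95% interval of 1.05 to 1.21 from an estimated 1636 and 1276 fragments. That interval, like those below, covers counting error only and uses the shortest annotated transcript, which makes it wide. MICB (chromosome 6, 31462658 to 31478901, hg19), its close relative in the MHC, had 23.9 FPKM in the NFX1 library and 20.3 FPKM in the vector library. Its fold was 1.17, with an interval of 1.04 to 1.32. Both intervals lie above 1 on the deposited scale, but they include 1 when scaled by summed FPKM. The fold was then 1.03 (0.953 to 1.105) for MICA and 1.07 (0.948 to 1.204) for MICB. MICA thus exceeded MICB 2.29 times in the NFX1 library and 2.38 times in the vector library, and the intervals of their levels did not overlap in either. All 3 MICA rows and all 6 MICB rows on alternate MHC haplotypes were at 0, as were all 1216 rows of the table on such haplotypes. Both genes are highly polymorphic, and the effect of allelic differences from the reference on these levels was not tested.

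The promoters of the abundant pair are shown because they share most of their letters, while the pair differs in level. Each sequence runs from 250 bases before to 50 bases after the RefSeq start (GRCh38.p14, 300 bases, plus strand, chr6:31403345-31403644 for MICA and chr6:31497895-31498194 for MICB). Capitals mark matches, on either strand, to the heat shock element core GAANNTTC, the hypoxia response element cores ACGTG and GCGTG, the GC box GGGCGG, the CCAAT box CCAAT and AGCAAC, letters of the X1 box of class II genes. No matches overlap in the printed sequences.
MICA: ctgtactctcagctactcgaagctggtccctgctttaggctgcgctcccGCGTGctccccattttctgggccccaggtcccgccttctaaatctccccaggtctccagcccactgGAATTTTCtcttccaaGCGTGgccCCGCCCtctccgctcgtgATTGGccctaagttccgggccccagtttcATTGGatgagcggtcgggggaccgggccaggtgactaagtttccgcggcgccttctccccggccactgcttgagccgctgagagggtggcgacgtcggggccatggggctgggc
MICB: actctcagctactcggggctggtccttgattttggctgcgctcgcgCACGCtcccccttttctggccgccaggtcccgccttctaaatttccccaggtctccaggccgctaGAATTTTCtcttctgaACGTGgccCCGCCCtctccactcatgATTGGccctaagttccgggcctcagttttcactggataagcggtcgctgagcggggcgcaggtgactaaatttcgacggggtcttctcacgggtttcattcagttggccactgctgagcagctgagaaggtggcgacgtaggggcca
In a global alignment 77.8% of 316 columns were identical, and the longest identical run was 23 bases. The first match in both is GCGTG, at -201 on the plus strand in MICA and at -204 on the minus strand in MICB. A heat shock element core began at -135 in MICA and at -139 in MICB, in a set of letters found in 6.77% of 35116 promoters of the same length. Next came a hypoxia core, GCGTG at -119 in MICA and ACGTG at -123 in MICB, found in 36.5% and 21.4% of promoters. A GC box at -111 in MICA and -115 in MICB (45.0% of promoters) and a CCAAT box at -93 and -97 (34.6%) followed. MICA has a second CCAAT box at -64, which MICB lacks. A match is a description of letters and shows neither binding nor use.

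ULBP2 (chromosome 6, 150263074 to 150270368, hg19), a ligand held in the membrane by a GPI anchor, had 3.17 FPKM in the NFX1 library and 2.39 FPKM in the vector library. Its fold of 1.33 had an interval of 0.999 to 1.76 from an estimated 128 and 85 fragments, which just includes 1. ULBP1 (chromosome 6, 150285143 to 150294846, hg19), also GPI-anchored, had 2.16 FPKM in the NFX1 library and 1.83 FPKM in the vector library, with an interval of 0.953 to 1.47 for its fold of 1.18. The order of these neighbours was the same in both libraries, but their intervals did not overlap in the NFX1 library (2.65 to 3.78 for ULBP2 and 1.88 to 2.48 for ULBP1) and did overlap in the vector library (1.92 to 2.97 and 1.55 to 2.15). MICA was 25.2 times as high as ULBP1 in the NFX1 library and 26.4 times in the vector library.

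RAET1G (ULBP5), a ligand with a transmembrane form, had 0.295 FPKM in the NFX1 library and 0.169 FPKM in the vector library. These values correspond to an estimated 8 and 4 fragments with a transcript of 904 bases, and the interval of the fold, 0.471 to 7.98, covers both directions. Its row spans chromosome 6, 150139894 to 150244288 (hg19), together with RAET1E and the antisense gene RAET1E-AS1, which had 10.4 FPKM in the NFX1 library and 13.9 FPKM in the vector library. RAET1E-AS1 and RAET1G transcripts share a run of 140 bases on opposite strands, and since library strandedness is not given in the sources used here, their reads cannot be told apart there. The pseudogene RAET1K had 0.251 FPKM in the NFX1 library and 0.289 FPKM in the vector library.

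ULBP3, RAET1E (ULBP4) and RAET1L (ULBP6) were listed at 0 in both libraries. With their shortest transcripts, 3 fragments would have given 0.137 FPKM for ULBP3, 0.164 FPKM for RAET1E and 0.125 FPKM for RAET1L in the NFX1 library, and 0.155, 0.187 and 0.142 FPKM in the vector library. A count of 0 allows levels up to about these values, from counting error alone. RAET1L is the closest relative of ULBP2: their longest transcripts were identical in 90.2% of 1359 alignment columns and shared a run of 200 bases. Of windows of 50 bases, 30.9% of those in RAET1L also occur in ULBP2, and of windows of 100 bases 12.4% do. Reads from those stretches could have been given to either gene, so the split between ULBP2 and RAET1L is uncertain.

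The promoters of ULBP2 and RAET1L are shown because the transcripts are closely related while 1 gene had a level above 1 FPKM and the other was listed at 0. Both run as above (GRCh38.p14), ULBP2 from the plus strand at chr6:149941764-149942063 and RAET1L from the minus strand at chr6:150025483-150025782, with the same motifs in capitals.
ULBP2: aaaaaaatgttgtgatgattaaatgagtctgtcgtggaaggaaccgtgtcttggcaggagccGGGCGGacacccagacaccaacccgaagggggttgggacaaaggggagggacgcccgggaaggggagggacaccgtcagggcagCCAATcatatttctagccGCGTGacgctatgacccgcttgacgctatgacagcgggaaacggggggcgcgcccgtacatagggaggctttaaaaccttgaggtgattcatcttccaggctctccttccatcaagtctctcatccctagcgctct
RAET1L: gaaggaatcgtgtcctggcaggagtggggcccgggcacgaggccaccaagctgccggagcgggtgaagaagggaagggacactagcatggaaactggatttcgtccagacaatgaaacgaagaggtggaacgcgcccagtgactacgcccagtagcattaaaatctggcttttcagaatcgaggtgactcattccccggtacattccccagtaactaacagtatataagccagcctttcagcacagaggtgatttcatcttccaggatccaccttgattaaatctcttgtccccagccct
The promoters were identical in 50.3% of 350 alignment columns, with a longest identical run of 13 bases. ULBP2 has a GC box at -188, a CCAAT box at -104 and GCGTG at -86, and none of the searched letters is present in this window of RAET1L. Across the 10 genes a GC box was found in 6 promoters, a CCAAT box in 5, ACGTG in 4, GCGTG in 4, and AGCAAC, found in 12.8% of all promoters, in 2. The heat shock element core was found in 2, those of MICA and MICB.

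HCST (chromosome 19, 36393382 to 36395173, hg19), the NKG2D adaptor, had 5.52 FPKM in the NFX1 library and 2.70 FPKM in the vector library. The NFX1 library was the higher, and the intervals of the levels did not overlap. The fold was 2.04 (1.86, with an interval of 1.19 to 2.86, when scaled by summed FPKM), with an interval of 1.31 to 3.14 from an estimated 73 and 32 fragments with a transcript of 445 bases, and of 1.43 to 3.02 from 101 and 43 fragments with a transcript of 613 bases. The authors' deposited table lists HCST with p = 0.0633, q = 0.999 and log2 fold change 1.03; with a single library on each side, that p cannot reflect variation among cultures. Among the ligands in the authors' deposited table the q was 0.999 for MICA, MICB, ULBP1, ULBP2 and RAET1G, and ULBP3, RAET1E and RAET1L were not tested. In the vector library the level of HCST (1.87 to 3.86 FPKM by its interval) overlapped that of ULBP2, and in the NFX1 library (4.31 to 6.91 FPKM) it lay above it.

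TYROBP (chromosome 19, 36395303 to 36399211, hg19) lies end to end with HCST on the opposite strand, with 129 bases between their rows. It was listed at 0 in both libraries, where 3 fragments would have given 0.242 FPKM in the NFX1 library and 0.275 FPKM in the vector library. The other genes with at least 1 FPKM within 50 kb of HCST differed less than HCST did. APLP1, an amyloid precursor-like protein, had 50.4 and 40.1 FPKM in the NFX1 and vector libraries, a log2 change of 0.32, or 0.11 once the composition trend described below is taken out. NFKBID, an atypical inhibitor of NF-kappa-B that lies 1829 bases from HCST and is read the opposite way, had 19.2 and 20.003 FPKM, a log2 change of -0.06, or -0.26 with the trend taken out. LRFN3, a neuronal adhesion protein, had 17.6 and 16.4 FPKM, a log2 change of 0.10, or -0.08 with the trend taken out.

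**Figure D2:**
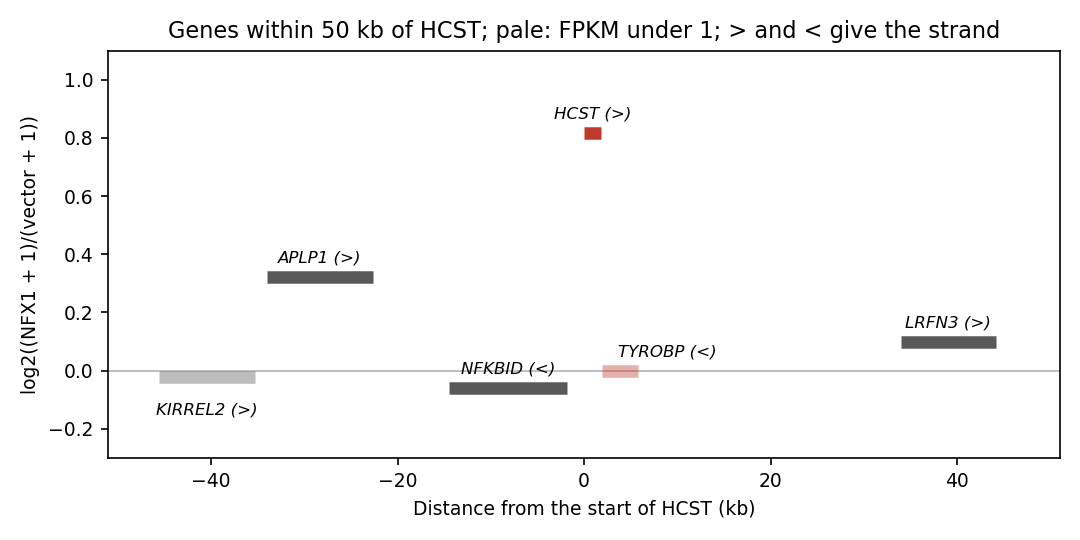
Genes within 50 kb of HCST by distance from its start in kb, at their log2 change of FPKM + 1 (NFX1 over vector); pale bars are genes under 1 FPKM in both libraries. HCST stands at 0.82, and APLP1, NFKBID and LRFN3 lie between -0.06 and 0.32.

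The HCST promoter is shown because this gene had the highest fold of the 5 above 1 FPKM. It runs as above on the plus strand at chr19:35902279-35902578 (GRCh38.p14).
HCST: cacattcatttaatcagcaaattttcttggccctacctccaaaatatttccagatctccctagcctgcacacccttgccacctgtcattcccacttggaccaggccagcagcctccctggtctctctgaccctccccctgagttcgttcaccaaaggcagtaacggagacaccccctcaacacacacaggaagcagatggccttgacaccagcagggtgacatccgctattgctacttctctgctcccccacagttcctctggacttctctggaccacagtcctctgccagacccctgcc
None of the searched letters is present in this window, which draws nothing about any factor. Its GC content was 55.0%, against 64.7% for MICA and 59.0% for MICB.

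On the scale used for comparison with all genes, log2((NFX1 FPKM + 1)/(vector FPKM + 1)), which understates the difference of low genes, HCST had a change of 0.82. ULBP2 followed at 0.30, MICB at 0.22, MICA at 0.17 and ULBP1 at 0.16, and RAET1G, below the limit of 1 FPKM, had 0.15. The median over the 5 genes with at least 1 FPKM was 0.22, beside 0.01 over all 11182 such genes, of which 52.01% were higher in the NFX1 library. 1 of the 5, HCST, was at least 1.5-fold higher, beside 0.42% of all 11182 genes, and none was at least 1.5-fold lower (0.215% of all genes). None of the 5 was at least 2-fold higher on this scale, beside 0.107% of all genes, or at least 2-fold lower, beside 0.0358%. With a pseudocount of 0.1 in place of 1 the change of HCST was 1.00, past 2-fold, and with 5 it was 0.45, short of 1.5-fold. 20 of the 11182 genes had a greater change than HCST. Among 3506 genes whose mean FPKM was within 2-fold of that of HCST its change ranked 7, where 0.542% were at least 1.5-fold higher and 0.342% lower, and 0.057% at least 2-fold higher and 0.0856% lower. Among the 636 of those with a median transcript of at most 700 bases it ranked 3, where 1.26% were at least 1.5-fold higher and 0.943% lower, and none at least 2-fold higher and 0.472% lower.

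**Figure D3:**
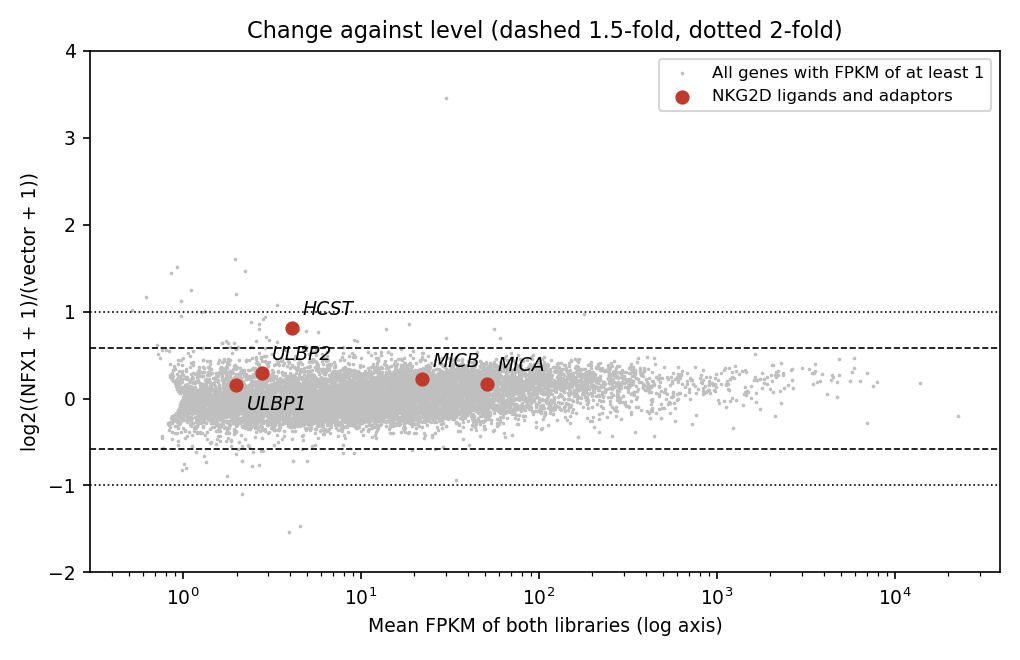
log2 change of FPKM + 1 (NFX1 over vector) against mean FPKM on a log axis for 11182 genes (grey) and the 5 NKG2D genes with at least 1 FPKM (red); dashed lines mark 1.5-fold and dotted lines 2-fold. HCST, at 0.82, lies between the upper dashed and dotted lines, and MICA, MICB, ULBP1 and ULBP2 lie within the main cloud.

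Over all genes the change varied with transcript GC content. Its median was 0.20 in the top 20% of genes by GC content (median GC 62.5%) and -0.11 in the bottom 20% (40.4%). The NKG2D genes spanned much of that range, with transcript GC contents of 42.6% for ULBP1, 46.9% for ULBP2, 50.2% for MICB, 54.0% for MICA and 58.4% for HCST. With the trend on GC content, transcript length and level taken out, HCST had 0.70, ULBP2 0.38, ULBP1 0.30, MICB 0.24 and MICA 0.07, so all 5 stayed above 0. The change of MICA became smaller, and those of ULBP1 and ULBP2, which have GC-poor transcripts, became larger. On that scale 98.8% of 10620 genes lay below ULBP2, 97.7% below ULBP1, 95.5% below MICB and 69.2% below MICA. Before the trend was taken out, the shares of 11182 genes were 92.0% for ULBP2, 74.3% for ULBP1, 83.1% for MICB and 75.6% for MICA. The ranks of ULBP1 and MICB thus depend on the fit, and the ligands were not ranked against genes of similar level. Scaling by summed FPKM lowers the NFX1 library by 0.14 (log2) and puts the median of all genes at -0.10; the changes were then 0.70 for HCST, 0.20 for ULBP2, 0.09 for MICB, 0.07 for ULBP1 and 0.04 for MICA, all above 0.

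**Figure D4:**
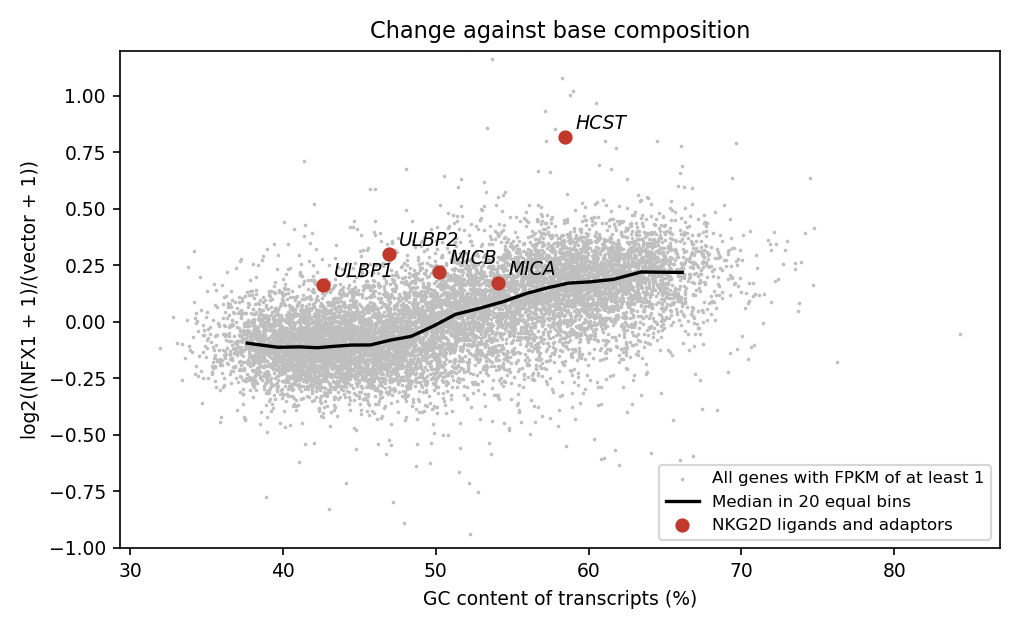
log2 change of FPKM + 1 (NFX1 over vector) against transcript GC content in percent for 10620 genes (grey), with the median in 20 equal bins (line) and the 5 NKG2D genes with at least 1 FPKM (red); 7 genes lie outside the vertical axis. HCST, ULBP2, ULBP1, MICB and MICA lie above the line.

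With only 2 libraries, likeness to HCST reduces to a similar change at a similar level. Among 2068 genes with a mean FPKM within 1.5-fold of that of HCST, those nearest in log2 change were NOXA1, an activator of NADPH oxidase (difference 0.03), the small GTPase RAC3 (0.04), the histone gene HIST1H2AH (0.05), LOC151174 (0.09) and MCEE, methylmalonyl-CoA epimerase (0.10). RAC3 had 6.44 FPKM in the NFX1 library and 3.34 FPKM in the vector library, and MCEE had 3.87 and 1.97 FPKM.

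Most of the receptors that HCST and TYROBP serve, and their relatives, were under 1 FPKM in both libraries. KLRK1, which encodes NKG2D, shares its row with KLRC4 and their readthrough, at 0.0723 FPKM in the NFX1 library and 0.0416 FPKM in the vector library. Of 13 receptors and relatives with a row of their own, 7 were at 0 in both libraries and 2 reached 1 FPKM, the lectin-like receptors KLRC2 (2.75 FPKM in the NFX1 library and 2.996 FPKM in the vector library) and KLRC3 (1.88 and 2.36 FPKM). They neighbour KLRK1 on chromosome 12, with KLRC1 at 1.08 and 1.02 FPKM, while their partner KLRD1 was at 0 in both libraries. KLRC1, KLRC2 and KLRC3 are closely related, so their split is uncertain. FCER1G, an adaptor related to TYROBP, had 0.525 FPKM in the NFX1 library and 0.258 FPKM in the vector library.

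Markers of blood cells that normally express HCST were examined beside it. Of 14 natural killer and T cell markers with a row, 8 were at 0 in both libraries and KLRC1 alone reached 1 FPKM, with sums of 1.61 FPKM in the NFX1 library and 1.16 FPKM in the vector library. CD3D had 0.305 and 0.117 FPKM, CD2 0.0757 and 0 FPKM, and NKG7, GNLY, PRF1, KLRD1 and CD3E were at 0 in both. Of 13 myeloid and leukocyte markers, 4 reached 1 FPKM: the lysosomal protein CD68 (52.6 FPKM in the NFX1 library and 48.9 FPKM in the vector library), lysozyme LYZ (47.9 and 49.2 FPKM), the actin-binding CORO1A (5.15 and 3.44 FPKM) and LAPTM5 (0.738 and 1.001 FPKM). The sum of the 13 was 107.7 FPKM in the NFX1 library and 103.3 FPKM in the vector library, and PTPRC, the pan-leukocyte phosphatase, and TREM2 were at 0 in both. All 5 fibroblast and all 4 endothelial markers were under 1 FPKM, with sums of 0.991 and 0.917 FPKM for fibroblasts and 0.0565 and 0.0587 FPKM for endothelium in the NFX1 and vector libraries. The part of any such cells in the HCST values was not tested.

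On the log2 scale of FPKM + 1, none of the genes in the lists that follow was at least 1.5-fold higher or lower. The shares of all genes on that scale, given above, were 0.42% and 0.215%, so a count of 0 in lists of this size is near the background. Plain ratios of low genes, such as PIK3CA below, can be larger. Scaled by summed FPKM, 32.1% of all genes were higher in the NFX1 library. With upper-quartile scaling the share was 46.4%, and with the trend taken out it was 50.6% of 10620 genes. Each share is the background for the splits under its own setting. Of 16 genes of signalling from HCST and TYROBP, 11 reached 1 FPKM, 5 higher and 6 lower, with a median change of -0.13; scaled by summed FPKM, 2 were higher and 9 lower. The phosphatidylinositol 3-kinase subunits PIK3CA (0.720 FPKM in the NFX1 library and 1.14 FPKM in the vector library) and PIK3R1 (0.749 and 1.11 FPKM) and the exchange factor VAV3 (4.83 and 6.04 FPKM) had the largest changes, at -0.31, -0.27 and -0.27. With the trend taken out these were -0.20, -0.17 and -0.16. PIK3CA and PIK3R1 reached 1 FPKM only in the vector library, where they were higher, so their direction is tied to that limit. Both count among the 6 lower genes of this list. SYK and ZAP70, kinases that bind the ITAM of TYROBP, were under 1 FPKM. Of 19 genes of ligand shedding and GPI anchoring, 17 reached 1 FPKM, 8 higher and 9 lower, with a median of -0.05. The split was 6 higher and 11 lower with upper-quartile scaling, 5 and 12 when scaled by summed FPKM, and 4 and 13 with the trend taken out. GPAA1, a subunit of the GPI transamidase that anchors ULBP proteins, had 102.1 FPKM in the NFX1 library and 77.4 FPKM in the vector library, TIMP3, a metalloprotease inhibitor, 15.3 and 20.2 FPKM, and MMP9 1.55 and 1.07 FPKM. Their log2 changes were 0.39, -0.38 and 0.30, or 0.14, -0.32 and 0.16 with the trend taken out. The sheddases ADAM10 and ADAM17, which release MICA and MICB, differed by -0.20 and -0.26, and by -0.09 and -0.13 with the trend taken out.

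Of 35 regulators of ligand genes, 34 reached 1 FPKM, 17 higher and 17 lower, with a median of -0.01; scaled by summed FPKM, 10 were higher and 24 lower. E2F1, a cell cycle factor, had 32.2 FPKM in the NFX1 library and 25.9 FPKM in the vector library, and IGF2BP2, an RNA-binding protein, 31.0 and 37.5 FPKM. Their log2 changes were 0.31 and -0.27, or 0.12 and -0.25 with the trend taken out. HSF1, which binds heat shock elements, differed by 0.22, and by -0.02 with the trend taken out. Of 23 other activating ligands with a row, 14 reached 1 FPKM, 7 higher and 7 lower, with a median of -0.03; scaled by summed FPKM, 4 were higher and 10 lower. The costimulatory ligands TNFSF9 (50.2 FPKM in the NFX1 library and 37.5 FPKM in the vector library) and CD70 (84.5 and 66.3 FPKM) and BAG6, a ligand of NKp30 (190.5 and 157.6 FPKM), had the largest changes on the deposited scale, at 0.41, 0.34 and 0.27. With the trend taken out these were 0.26, 0.15 and 0.05, and PVR (-0.23) and ICAM1 (-0.21) lay farther from 0 than CD70 and BAG6. Inhibitory ligands and death receptors were mostly lower: of 14 at 1 FPKM, 13 were lower and 1 higher, with a median of -0.10, and with the trend taken out 12 were lower and 2 higher, with a median of -0.18. The decoy receptor TNFRSF10D had 8.60 FPKM in the NFX1 library and 11.01 FPKM in the vector library, the checkpoint ligand CD276 58.8 and 49.1 FPKM, and the cadherin CDH1 3.47 and 4.31 FPKM. Their log2 changes were -0.32, 0.25 and -0.25, or -0.22, 0.04 and -0.20 with the trend taken out. HLA-E, the ligand of the inhibitory receptor NKG2A, had 54.1 and 54.8 FPKM. The hepatocyte list had a median of 0.04 over 13 genes, 9 higher and 4 lower (4 and 9 when scaled by summed FPKM), with AHSG at -0.44, TTR at 0.32 and KRT8 at 0.31. With the trend taken out AHSG had -0.49, TTR 0.40 and KRT8 0.07. ALB, which counts among the 9 higher genes, reached 1 FPKM only in the NFX1 library, so its direction is tied to that limit.

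**Figure D5:**
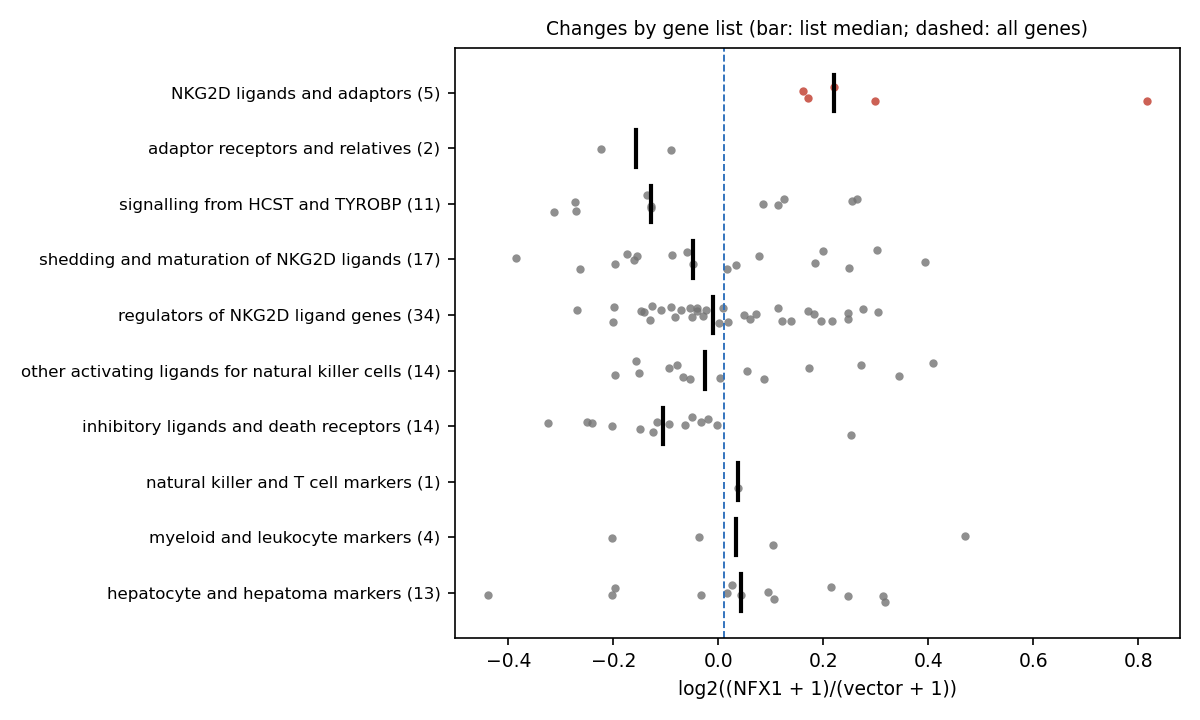
log2 change of FPKM + 1 (NFX1 over vector) of each gene with at least 1 FPKM, by list with the number of genes in brackets; black bars are list medians and the dashed line is the median of all 11182 genes, 0.01. The NKG2D genes all lie right of the dashed line, from 0.16 to 0.82, and 13 of the 14 inhibitory ligands and death receptors lie left of 0.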

How the data were processed

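Each group held 1 library, placed by the sample's own label. TopHat2 2.1.0 and Cufflinks 2.2.1 with hg19 are named in the submitters' processing notes; their settings, annotation, read length and strandedness are not given in the sources used here. Per the file headers, the deposited values are FPKM and the authors' log2 fold change, test statistic (a score), p-value and q-value. Of the table's 28658 rows, those with no symbol (1651) or more than 1 (492) were set aside, and the row with the highest mean stood for a repeated symbol. No p-value was computed.

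Genes, lists and motifs were chosen with earlier results of these data known. Depth was estimated from the lowest FPKM of short olfactory receptor genes (7 in the NFX1 library, 6 in the vector library). Low FPKM values gave a depth ratio of 1.14: at that ratio 62.2% of 2950 rows came within 0.01 (log2) of whole fragments, and a median of 13.0% did at other ratios. Fragment numbers used GENCODE v29 transcript lengths, matched by symbol without coordinates. The trend was fitted by cubic splines on 10620 genes (95.0%), leaving changes of 1 (log2) or more out of the fit, and took 40.2% of the variance. Steps were tested on simulated data. Named genes were NFX1 and the 10 genes, the 3 largest changes of each list, every gene of the immune marker and receptor lists at 1 FPKM or above (or else the 3 highest), those within 50 kb of HCST and the 5 most like it; other genes named were chosen after their values were seen. By this rule 1 further gene would be named, which is not reported here. Promoters are from RefSeq, matched by symbol for 10 of 10 genes. Alternatives covered the pseudocount, filter, scaling, repeated rows and trend. Software was Python 3.11.15 with matplotlib 3.10.9, scipy 1.17.1, pandas 2.3.3 and numpy 2.4.6.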

Additional observations from a re-analysis of the deposited data

How the results depend on the processing

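No paired analysis was possible because each group has 1 library. The change of HCST was 0.82 as reported and ranged from 0.45 with a pseudocount of 5 to 1.00 with a pseudocount of 0.1, and it was 0.70 both with scaling by summed FPKM and with the trend taken out. The number of the 10 genes at least 2-fold apart was 0 as reported and 1, HCST, with a pseudocount of 0.1. The number at least 1.5-fold apart was 1 as reported and 0 with a pseudocount of 5. The pseudocount sets these by construction, since HCST is a low gene. The median over genes with at least 1 FPKM was 0.22 as reported and ranged from 0.09 with scaling by summed FPKM to 0.30 with the trend taken out; with a minimum of 5 FPKM it was 0.22 over 3 genes, and with no filter 0.15 over 10 genes. Summing the rows of a repeated symbol moved no value. Depth limits RAET1G, at an estimated 8 and 4 fragments, and the 4 genes listed at 0.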
